A study of Rattus norvegicus with 6 samples.

Results

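The cytosolic heat shock proteins are described here through 10 genes: Hspa8, Hspa1a, Hspa1b and Hsph1 of the HSP70 and HSP110 families, Dnajb1, the HSP90 genes Hsp90aa1 and Hsp90ab1, and the small heat shock proteins Hspb1, Hspb8 and Cryab. They were found by symbol in the deposited mRNA table, where all 10 of the 10 were present among 16551 rows. Cells from dorsal root ganglia of rats, taken at lumbosacral levels, were cultured for 48 h in control medium (3 samples) or in medium with glucose raised to 45 mmol/L (3 samples, titled DM in the labels, which do not spell out that DM stands for high glucose). DMEM is named beside the high-glucose medium, the glucose level of the control cultures is not given in the sources used here, and no group controlled for osmolarity. Strain, sex and age of the animals are not stated there either, nor whether samples of a group came from separate cultures, so each p-value is set against a spread among samples that could be purely technical.

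Heat shock proteins of the cytosol are chaperones: they bind unfolded chains and help them to fold, or pass them on for degradation. HSP70 works as a cycle of ATP-driven binding and release, in which J-domain proteins such as Dnajb1 deliver the client and start ATP hydrolysis, and nucleotide exchange factors such as Hsph1 and the BAG proteins end the cycle. HSP90 takes over late folding states of kinases and hormone receptors, and the small heat shock proteins hold misfolded clients without ATP. Heat and other protein stress raise many of these genes through the transcription factor HSF1, which binds inverted repeats of the unit GAA called heat shock elements. In sensory ganglia Hspb1 is best known as a protein that injured neurons make and that supports axon growth.

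The upstream promoter sequences of Hspa8, Hspb1, Dnajb1 and Hsph1 are shown to let paired GAA units be seen beside the direction of each transcript. The first 3 transcripts were lower and that of Hsph1 did not pass the test. RefSeq windows of 300 bases, 250 before to 50 after a gene's start on the build GRCr8, matched 7 of the 10 genes by symbol. Hsp90aa1, Hspa1b and Cryab had no match. The genome build behind the expression values was Rnor_6.0, so these coordinates stand for the sequences only. The 250 bases before the start follow for these 4 genes, 5′ to 3′ along the gene, with capitals at every GAANNTTC and TTCNNGAA, the head-to-head and tail-to-tail pairs of units (each reads the same on both strands).
Hspa8 (GRCr8 chr8:50080264-50080513, plus strand): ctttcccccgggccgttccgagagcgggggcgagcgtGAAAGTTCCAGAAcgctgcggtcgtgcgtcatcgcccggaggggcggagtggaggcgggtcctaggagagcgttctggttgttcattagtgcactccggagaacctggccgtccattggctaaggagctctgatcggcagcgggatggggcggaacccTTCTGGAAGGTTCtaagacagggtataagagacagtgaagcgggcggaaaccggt
Hspb1 (GRCr8 chr12:26432302-26432551, minus strand): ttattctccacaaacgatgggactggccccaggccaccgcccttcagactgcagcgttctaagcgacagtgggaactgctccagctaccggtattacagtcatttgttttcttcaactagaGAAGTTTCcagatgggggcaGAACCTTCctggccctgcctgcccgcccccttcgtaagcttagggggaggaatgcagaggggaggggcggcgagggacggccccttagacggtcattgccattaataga
Dnajb1 (GRCr8 chr19:41431142-41431391, minus strand): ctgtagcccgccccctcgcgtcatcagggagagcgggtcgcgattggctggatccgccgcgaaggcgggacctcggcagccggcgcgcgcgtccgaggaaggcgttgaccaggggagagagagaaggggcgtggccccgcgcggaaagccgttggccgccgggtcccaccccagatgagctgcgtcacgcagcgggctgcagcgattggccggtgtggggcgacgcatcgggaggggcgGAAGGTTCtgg
Hsph1 (GRCr8 chr12:10427118-10427367, plus strand): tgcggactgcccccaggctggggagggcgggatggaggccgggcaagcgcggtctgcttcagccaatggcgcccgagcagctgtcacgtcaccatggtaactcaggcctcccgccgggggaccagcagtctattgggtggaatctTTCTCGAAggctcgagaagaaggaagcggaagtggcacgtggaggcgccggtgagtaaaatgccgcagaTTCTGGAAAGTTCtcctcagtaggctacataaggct
Hspa8 held a run of 3 units (GAANNTTC followed at once by NNGAA, or its reverse complement, TTCNNGAA followed by NNTTC, both of which contain the pairs) at 2 places, beginning 213 and 55 bases before the start. Hsph1 held 1 such run, beginning 36 bases before its start, and a separate pair at 105 bases. Hspb1 held 2 pairs, at 129 and 109 bases, and Dnajb1 1 pair at 11 bases before the start and 1 at 17 bases after it. Of the windows not printed, that of Hspb8 held 1 pair, and those of Hsp90ab1 and Hspa1a held neither form. Hspa1a overlaps Hspa1l in the RefSeq table, and whether its window lies at the start used in these cells was not tested. The lack of a match there is thus no statement about the promoter of Hspa1a. Hspb8 and Hsp90ab1 were lower too, but their 250 bases overlap the gene's own bounds in RefSeq's gene table. Over all 33469 windows of this length, 15.9% held a pair and 0.798% held a run of 3 units. Among the 10837 tested genes with a window, 1260 held a pair and 54 a run of 3 units, which are lower shares. A match is a description of letters, not a binding site.

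Of the 10 transcripts, 5 were lower in high glucose (Hspb1, Hspa8, Hsp90ab1, Hspb8 and Dnajb1), 1 was higher (Hspa1b) and 4 did not pass the test (Hsph1, Cryab, Hsp90aa1 and Hspa1a). The test was limma, a linear model per gene with pooled variance, with p-values adjusted over all 16551 genes by Benjamini-Hochberg and a threshold of 0.05. By the same test 50.5% of all genes passed, 25.5% lower and 24.9% higher, so 6 of 10 is a share close to that of the table as a whole. The median log2 fold change of the 10 genes was -0.28, against 0.01 over all genes. In 6 of the 10 the samples of the groups did not overlap, 5 lower and 1 higher, which held for 57.6% of all genes, 28.9% lower and 28.7% higher. With libraries scaled by their read totals alone, the median of all genes moved from 0.01 to 0.13, the share of called genes that were higher went from 49.4% to 67.6%, and the 10 genes gave 4 lower and 2 higher.

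**Figure D1:**
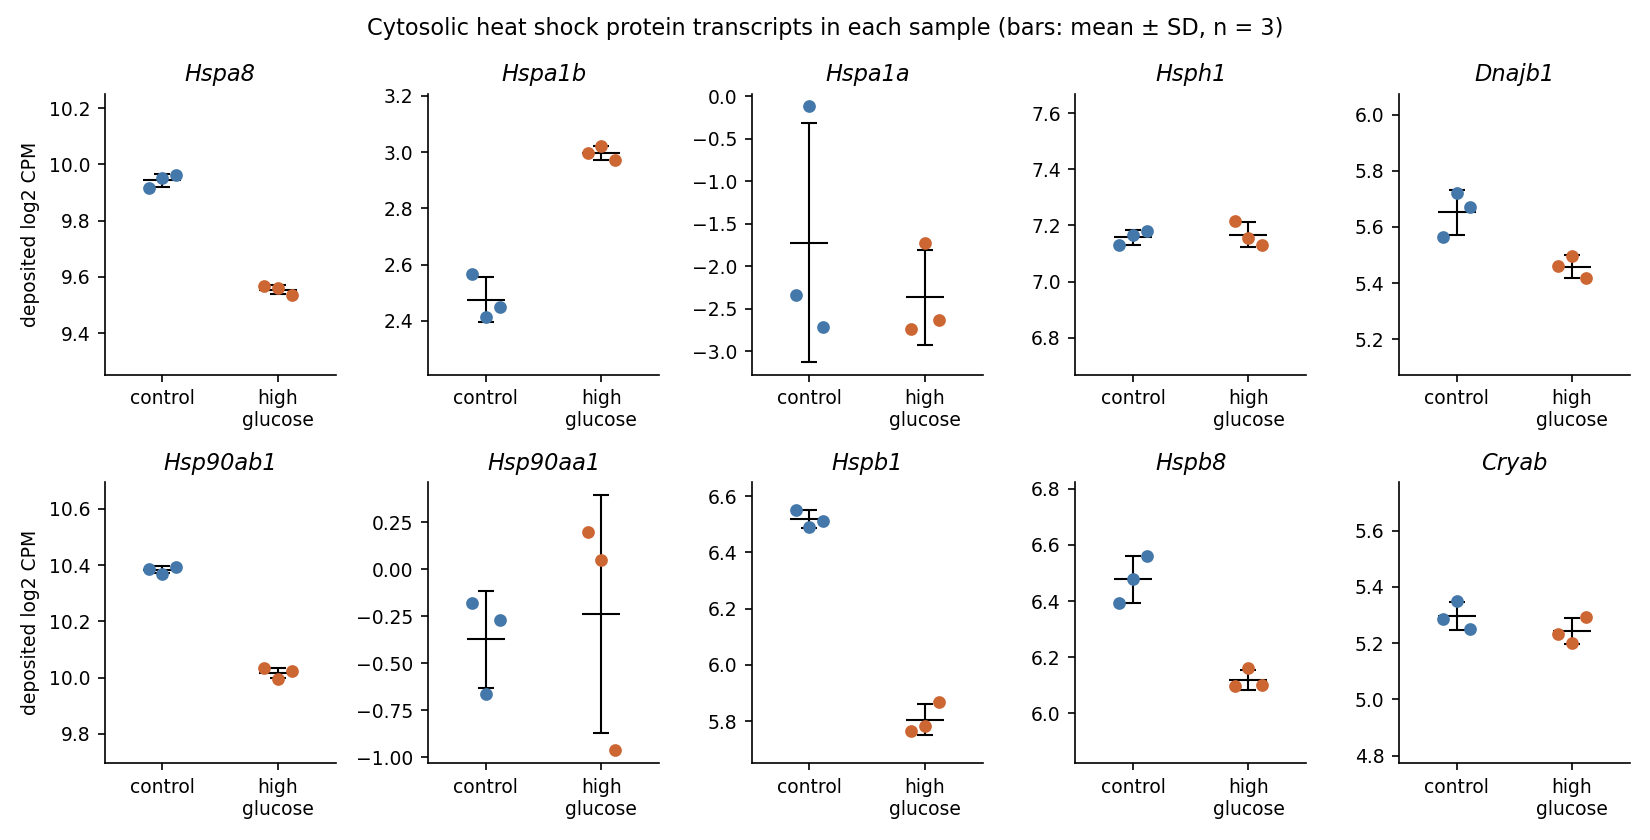
Deposited log2 CPM (y axis, a separate range in each panel) of the 10 heat shock transcripts in the 3 control and 3 high-glucose samples; points are samples, bars the mean ± SD. Hspb1, Hspa8, Hsp90ab1, Hspb8 and Dnajb1 are lower and Hspa1b is higher with no overlap of the groups, whereas Hspa1a and Hsp90aa1 scatter widely.

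Values are given as the authors deposited them, on a log2 scale of CPM, the reads of a gene relative to the scaled library total, and each log2 fold change is high glucose minus control with its standard error (SE). They are not corrected for transcript length, so levels are not compared between genes. Hspa8 (ENSRNOG00000034066), the constitutive HSP70 of the cytosol, known as HSC70, was at 9.92, 9.95 and 9.96 in the control samples and at 9.57, 9.56 and 9.54 in high glucose. Every high-glucose sample lay below every control. The log2 fold change was -0.39 ± 0.02 (SE), 1.31-fold lower, on 22765 to 30627 reads per sample (limma, adjusted p = 8.78e-10). After quantile normalization, which forces the samples onto 1 distribution, it was -0.17 and still passed (adjusted p = 8.04e-05). A second row with the symbol Hspa8 (ENSRNOG00000032585) held only 148 to 181 reads per sample and had a log2 fold change of -0.13 ± 0.10 that did not pass (adjusted p = 0.34). RefSeq names 33 loci on GRCr8 as Hspa8 pseudogenes and places Snord14a and LOC120094548 within its bounds, and how reads that fit several places were counted is not given in the sources used here.

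Hspa1b (ENSRNOG00000050647), a stress-inducible HSP70, went the other way. It was at 2.57, 2.41 and 2.45 in control and at 3.00, 3.02 and 2.97 in high glucose. Each control sample held 161 to 164 reads of it, and each high-glucose sample 239 to 267. The high-glucose samples all lay above the controls, and the log2 fold change was 0.52 ± 0.09, a 1.43-fold rise (limma, adjusted p = 0.000268). Its near-identical neighbour Hspa1a (ENSRNOG00000045654) was almost unread, with 5, 28 and 4 reads in control and 4, 9 and 5 in high glucose. A single control sample, control 2, held most of the control reads of Hspa1a, and the groups overlapped. Its log2 fold change of -0.64 had a 95% interval from -2.01 to 0.73 (adjusted p = 0.432) and was 0.16 without control 2. Reads of Hspa1a and Hspa1b may be split or lost between the copies, and Hspa1a overlaps Hspa1l in the RefSeq table, so both rows are uncertain.

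Relative to Hspa8 in the same sample, the summed Hspa1a and Hspa1b values were higher in high glucose. The log2 ratio was -7.30, -7.31 and -7.47 in control and -6.54, -6.48 and -6.54 in high glucose. That is a difference of 0.84, or 1.79-fold, with no overlap between the groups (exact permutation test, two-sided, p = 0.1, the smallest that 3 against 3 samples can give, and 0.133 adjusted over the 4 ratios computed). After quantile normalization the difference was 0.58. The ratio within a sample does not depend on a factor per library, and its size is in reads, without a correction for length.

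Hsph1 (ENSRNOG00000000902), the HSP110 protein that exchanges the nucleotide of HSP70, was at 7.13, 7.17 and 7.18 in control and 7.22, 7.15 and 7.13 in high glucose. The groups overlapped, and the log2 fold change was 0.01 ± 0.03, with a 95% interval from -0.05 to 0.07 (limma, adjusted p = 0.829). With library totals alone it was 0.12 and passed (adjusted p = 0.00326), beside a median of 0.13 over all genes under that scaling. The interval as deposited lies above the change of Hspa8, to which Hsph1 binds. Dnajb1 (ENSRNOG00000021824), the J-domain protein that delivers clients to HSP70, was at 5.56, 5.72 and 5.67 in control and 5.46, 5.50 and 5.42 in high glucose. Its samples did not overlap, and the fall was small, with a log2 fold change of -0.19 ± 0.04 (limma, adjusted p = 0.00224). It was -0.08 and did not pass with library totals alone (adjusted p = 0.157).

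The log2 ratio of Dnajb1 to Hspa8 was -4.35, -4.23 and -4.29 in control and -4.11, -4.06 and -4.12 in high glucose. The difference of 0.20 had the smallest p that the design allows (exact permutation test, two-sided, p = 0.1, and 0.133 adjusted over 4 ratios). It vanished after quantile normalization, at -0.002, where the fall of Hspa8 came to that of Dnajb1. Of the promoters shown above, those of Hspa8 and Hsph1 both hold a run of 3 units; the transcript of Hspa8 was lower and that of Hsph1 did not pass.

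Hsp90ab1 (ENSRNOG00000019834), the constitutive HSP90 beta, was at 10.38, 10.37 and 10.39 in control and 10.03, 10.00 and 10.02 in high glucose, on 31422 to 40885 reads per sample. The spread within a group was narrow and the groups lay apart. Its log2 fold change was -0.37 ± 0.02, 1.29-fold lower (limma, adjusted p = 7.13e-10). After quantile normalization it was -0.08 (adjusted p = 0.000705), so its direction held and its size depended on the scaling. Hsp90aa1 (ENSRNOG00000007219), the stress-inducible HSP90 alpha, had only 24, 19 and 24 reads in control and 34, 32 and 17 in high glucose. High glucose 3 was the lowest of all 6 samples while the other two of its group were the highest. The log2 fold change of 0.14 did not pass (95% interval -0.58 to 0.85, limma adjusted p = 0.761). So few reads could not show a change of this size. RefSeq names 16 loci as Hsp90aa1 and 23 as Hsp90ab1 pseudogenes, and it lists LOC102549239 as overlapping Hsp90aa1. None of the rows of the mRNA table carried a name of those loci. Whether reads shared with such copies were kept is not given in the sources used here, so the row of Hsp90aa1, its ratio to Hsp90ab1 and its share of reads are uncertain.

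The log2 ratio of Hsp90aa1 to Hsp90ab1 overlapped between the groups, with means of -10.76 ± 0.25 (SD, n = 3) in control and -10.25 ± 0.64 in high glucose (exact permutation test, two-sided, p = 0.3). Hsp90ab1 and Hspa8 together held 84.5% to 84.9% of the reads of the 10 genes in control and 83.1% to 83.3% in high glucose. All 10 genes together took 0.26%, 0.263% and 0.267% of the mRNA reads in the control samples and 0.226%, 0.224% and 0.22% in the high-glucose samples.

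Hspb1 (ENSRNOG00000023546), the small heat shock protein HSP27 that stabilizes actin and binds unfolded clients, had the largest called change of the 10 as deposited and after quantile normalization; with library totals alone that of Hspa1b was larger (0.63 against -0.60). It was at 6.55, 6.49 and 6.51 in control and 5.76, 5.78 and 5.87 in high glucose. Controls held 2605 to 2778 reads of it, and high-glucose samples 1629 to 1992. The groups lay far apart relative to their spread. The log2 fold change was -0.71 ± 0.04, 1.64-fold lower (limma, adjusted p = 1.38e-09), and -0.69 after quantile normalization and -0.60 with library totals alone. Of all genes, 8.76% had a value this low or lower. Hspb8 (ENSRNOG00000022392), the partner of the co-chaperone Bag3 in clearing misfolded proteins, was at 6.39, 6.48 and 6.56 in control and 6.10, 6.16 and 6.10 in high glucose. It too fell without overlap, by a log2 fold change of -0.36 ± 0.04, 1.28-fold lower (limma, adjusted p = 6.27e-06).

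Cryab (ENSRNOG00000010524), alpha-B-crystallin, was at 5.28, 5.35 and 5.25 in control and 5.23, 5.20 and 5.29 in high glucose. The groups overlapped, with a log2 fold change of -0.05 ± 0.04 and a 95% interval from -0.14 to 0.04 (limma, adjusted p = 0.322), and the sign turned to 0.06 with library totals alone. Cryab overlaps its neighbour Hspb2 in the RefSeq table, and whether counting used the strand is not given in the sources used here. Within a sample, Hspb1 was lower relative to Cryab in high glucose. The log2 ratio of Hspb1 to Cryab was 1.27, 1.14 and 1.26 in control and 0.53, 0.58 and 0.58 in high glucose, a difference of -0.66 (exact permutation test, two-sided, p = 0.1, and 0.133 adjusted over 4 ratios).

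**Figure D2:**
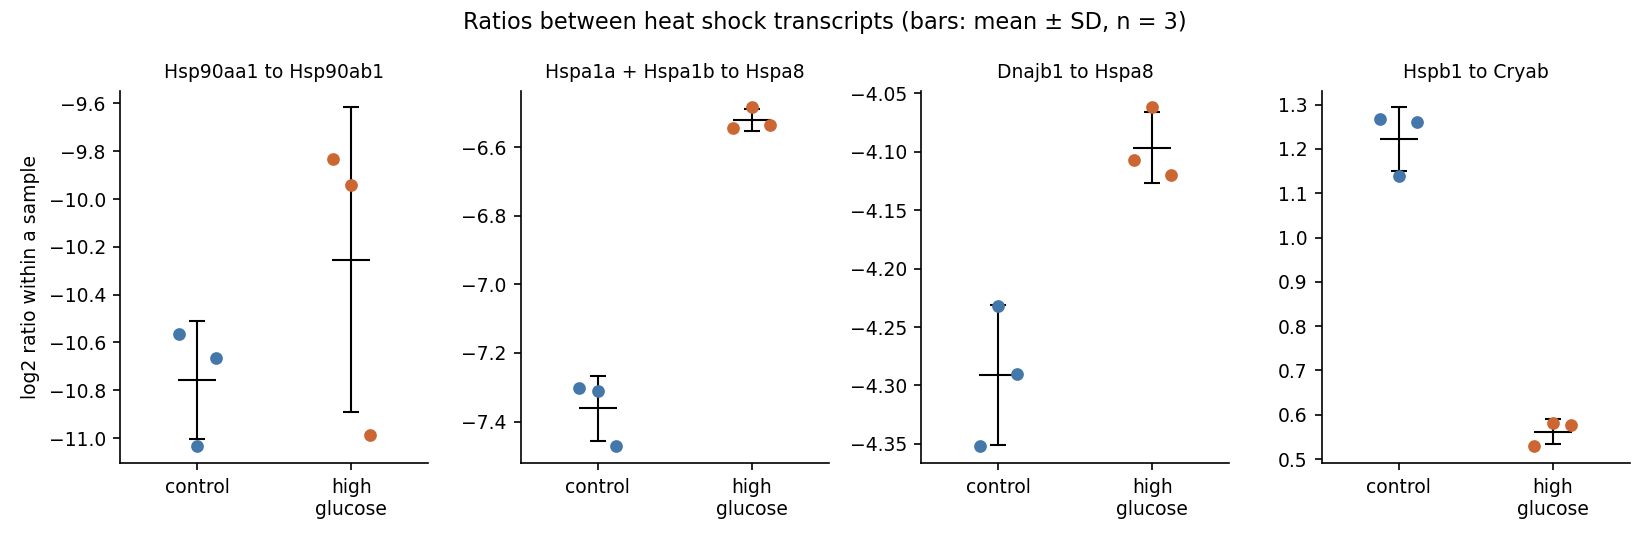
Log2 ratio (y axis, a separate range in each panel) of one heat shock transcript to another within each of the 3 control and 3 high-glucose samples; points are samples, bars the mean ± SD. The groups do not overlap in 3 of the 4 ratios and overlap in that of Hsp90aa1 to Hsp90ab1.

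**Figure D3:**
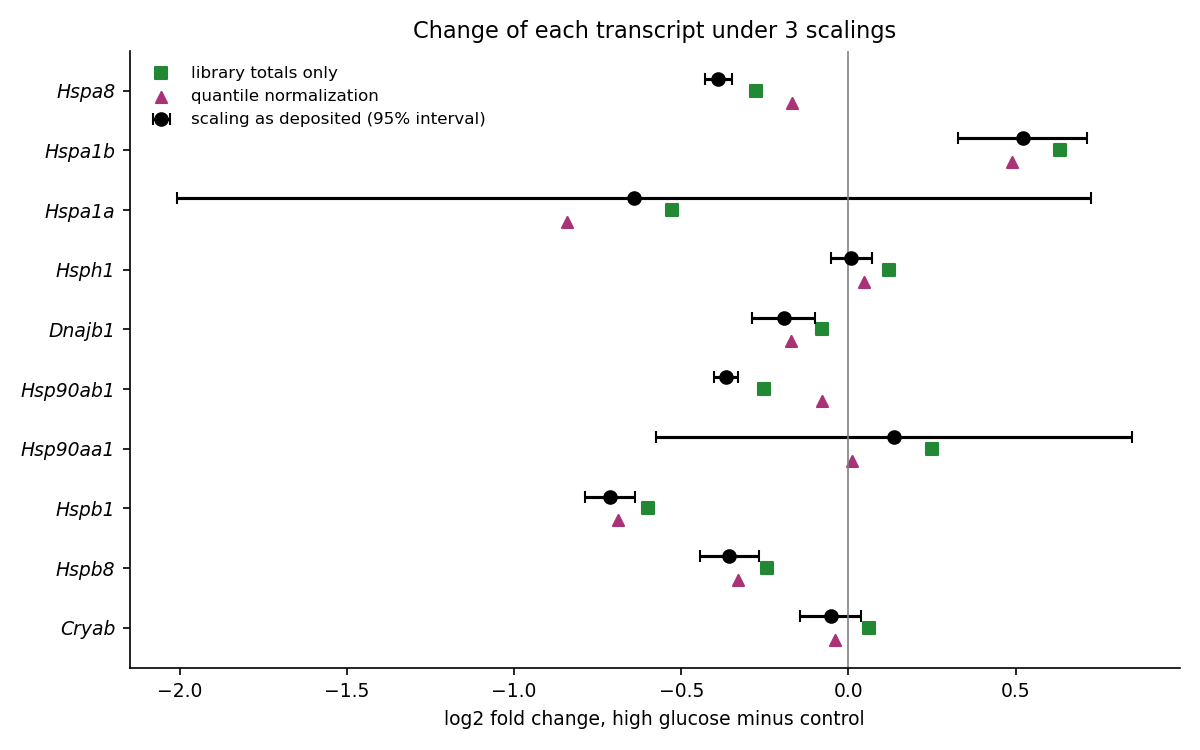
Log2 fold change (x axis) of each of the 10 transcripts under the scaling as deposited (circles with 95% intervals), with library totals alone (squares) and after quantile normalization (triangles). Hspb1 stays between -0.71 and -0.60, while Hsp90ab1 ranges from -0.37 to -0.08. The intervals of Hsph1, Cryab, Hspa1a and Hsp90aa1 span 0, and those of Hspa1a and Hsp90aa1 are the widest.

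Counts in the lists that follow stand beside 25.5% lower and 24.9% higher over all genes. The genes listed by symbol as other small heat shock proteins were split, and a symbol alone does not show that a product is a chaperone. Of 5 measured, 2 were higher, 2 lower and 1 did not pass. Hspb6, HSP20 of muscle and other tissues, rose 1.82-fold (log2 fold change 0.86 ± 0.06, limma adjusted p = 3.77e-08). Hspb2, which lies beside Cryab, rose 1.47-fold (0.56 ± 0.08), whereas Hspb7 and Hspb11 had values of -0.79 ± 0.19 and -0.46 ± 0.09. Of 8 other HSP70 and HSP110 genes, 3 were higher and 1 lower (5 and 1 with library totals alone). They were led by Hspa2, an HSP70 best known from the testis, which rose 1.53-fold (0.61 ± 0.06, limma adjusted p = 1.3e-06). Hspa4l, a relative of Hsph1, rose by 0.44 ± 0.09 and Hspa13 by 0.20 ± 0.03, and Hspa12a fell (-0.39 ± 0.06).

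Of the heat shock factors and their regulators, 3 of 6 were higher and 1, Hsf1, was lower. Hsf1, the factor that drives the heat shock response, had a log2 fold change of -0.12 ± 0.04 (limma, adjusted p = 0.0215). That call was lost in 4 of the 6 fits that leave out a sample (control 1, control 2, high glucose 1 or high glucose 2), after quantile normalization (-0.10, adjusted p = 0.0507), with a single variance prior (adjusted p = 0.069) and with library totals alone (-0.008, adjusted p = 0.88). Hsf2, a second factor that binds the same elements, rose by 0.17 ± 0.04, Hsf4 by 0.56 ± 0.11 and Hsbp1, a small protein that binds HSF1, by 0.18 ± 0.03. Of 15 measured genes listed as HSF1 targets outside the 10, 4 passed as higher and 7 as lower, and their median was -0.13. With library totals alone 6 were higher and 6 lower, with a median of -0.02. Serpinh1, the collagen chaperone HSP47, was 1.41-fold lower (-0.50 ± 0.02, and -0.28 after quantile normalization), while Bag3 rose 1.23-fold (0.30 ± 0.05). Among the 10837 tested genes with a promoter window, 54 held a run of 3 units, Hspa8 and Hsph1 among them. Of those 54 genes, 21 (38.9%) were lower and 11 (20.4%) higher, against 27.6% and 26.4% of all 10837. Of the 1260 genes with a pair, 27.9% were lower and 25.3% higher, close to the shares of all 10837. These shares are given for the scaling as deposited only.

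Genes listed with the co-chaperones of HSP70 were split. Of 11 listed, not all of them exchange factors or adaptors of HSP70, 4 were lower, 2 were higher and 5 did not pass. Stip1, which bridges HSP70 and HSP90, and St13, which steadies HSP70, had log2 fold changes of -0.28 ± 0.03 and -0.27 ± 0.03, and Hspbp1, an exchange factor, -0.38 ± 0.06. Bag3, a BAG exchange factor, rose by 0.30 ± 0.05, and Bag6, which shields newly made membrane proteins, by 0.23 ± 0.03. Stub1, the ubiquitin ligase CHIP, stood at -0.05 ± 0.04, short of the threshold (limma, adjusted p = 0.301), and turned to 0.06 with library totals alone. Of 14 cytosolic J-domain genes 5 were lower and 1 higher, with 3 and 3 under library totals alone. The smallest p-values among the lower ones belonged to Dnajc21, at -0.52 ± 0.07, Dnajb5, at -0.25 ± 0.04, and Dnajb4, at -0.13 ± 0.02 (-0.02 and not passing with library totals alone), and Dnaja1 rose by 0.09 ± 0.02.

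Of 17 co-chaperones of HSP90, 6 were lower, 2 higher and 9 did not pass; with library totals alone the split was 4 lower and 8 higher. Fkbp5, an immunophilin of steroid receptor complexes that glucocorticoids induce, was 1.92-fold lower (-0.94 ± 0.06, limma adjusted p = 1.39e-08). Its relative Fkbp4 was 1.37-fold lower (-0.46 ± 0.03), and Cdc37, which brings kinases to HSP90, had a value of -0.21 ± 0.02. Chordc1 and Ppid, which rose by 0.12 ± 0.04 and 0.11 ± 0.04, lost their calls without single samples: Chordc1 without control 1, control 3 or high glucose 3, and Ppid without control 2, control 3, high glucose 1 or high glucose 3. Their adjusted p-values by limma were 0.0915 and 0.137 when the variance prior had no trend. The subunits of the chaperonin TRiC, which folds actin and tubulin, had 7 lower members out of 8 and no higher one. Their median was -0.23, and with library totals alone 5 were lower and 1 higher. Cct5, Cct8 and Tcp1 had values of -0.32 ± 0.02, -0.29 ± 0.03 and -0.22 ± 0.02. Of the prefoldin genes, whose product hands clients to TRiC, 4 of 6 were lower and 1 higher (2 and 1 with library totals alone). Pfdn1, Pfdn6 and Vbp1 had values of -0.32 ± 0.03, -0.35 ± 0.04 and -0.22 ± 0.06, the last not passing with library totals alone (-0.11) or with a single variance prior (limma, adjusted p = 0.0589). Pfdn5 rose by 0.12 ± 0.05, a call lost without control 1, control 2, high glucose 1 or high glucose 2. It was also lost when the variance prior had no trend (limma, adjusted p = 0.153).

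In the lists of 2 other compartments, more genes were lower than higher. Of 10 chaperones of the endoplasmic reticulum, 9 passed as lower and none as higher, and 6 were lower with library totals alone. Their median was -0.28, and -0.13 after quantile normalization. Hspa5, the HSP70 of that compartment, had a value of -0.57 ± 0.02, Hsp90b1, its HSP90, -0.44 ± 0.02 and Canx -0.36 ± 0.02. After quantile normalization these were -0.32, -0.185 and -0.054. Of 11 mitochondrial chaperones and proteases, 6 were lower and 1 higher (4 and 2 with library totals alone). Lonp1, the matrix protease, was 2.08-fold lower (-1.06 ± 0.02), Hspa9, the HSP70 of mitochondria, 1.57-fold (-0.65 ± 0.03) and Hspd1, HSP60, 1.26-fold (-0.34 ± 0.03), and Clpx rose by 0.22 ± 0.04. Of 6 genes of chaperone-assisted selective autophagy, in which Bag3 and Hspb8 take part, 3 were higher and 2 lower (4 and none with library totals alone). Synpo2 rose by 0.68 ± 0.06 and Map1lc3b by 0.12 ± 0.03. Sqstm1 had a value of -0.13 ± 0.03, a call lost with library totals alone and with a single variance prior (limma, adjusted p = 0.0519). That of Flnc, at -0.07 ± 0.02, did not pass with that prior (limma, adjusted p = 0.114) and turned to 0.19 after quantile normalization and to 0.05 with library totals alone. Over all lists, with each of 102 measured genes taken once and none of the 10 included, 17 passed as higher and 48 as lower, and the median was -0.11. Of all 16551 genes, 24.9% passed as higher and 25.5% as lower, with a median of 0.01. With library totals alone 31 of the list genes were lower and 30 higher, against 2847 and 5932 of all genes.

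**Figure D4:**
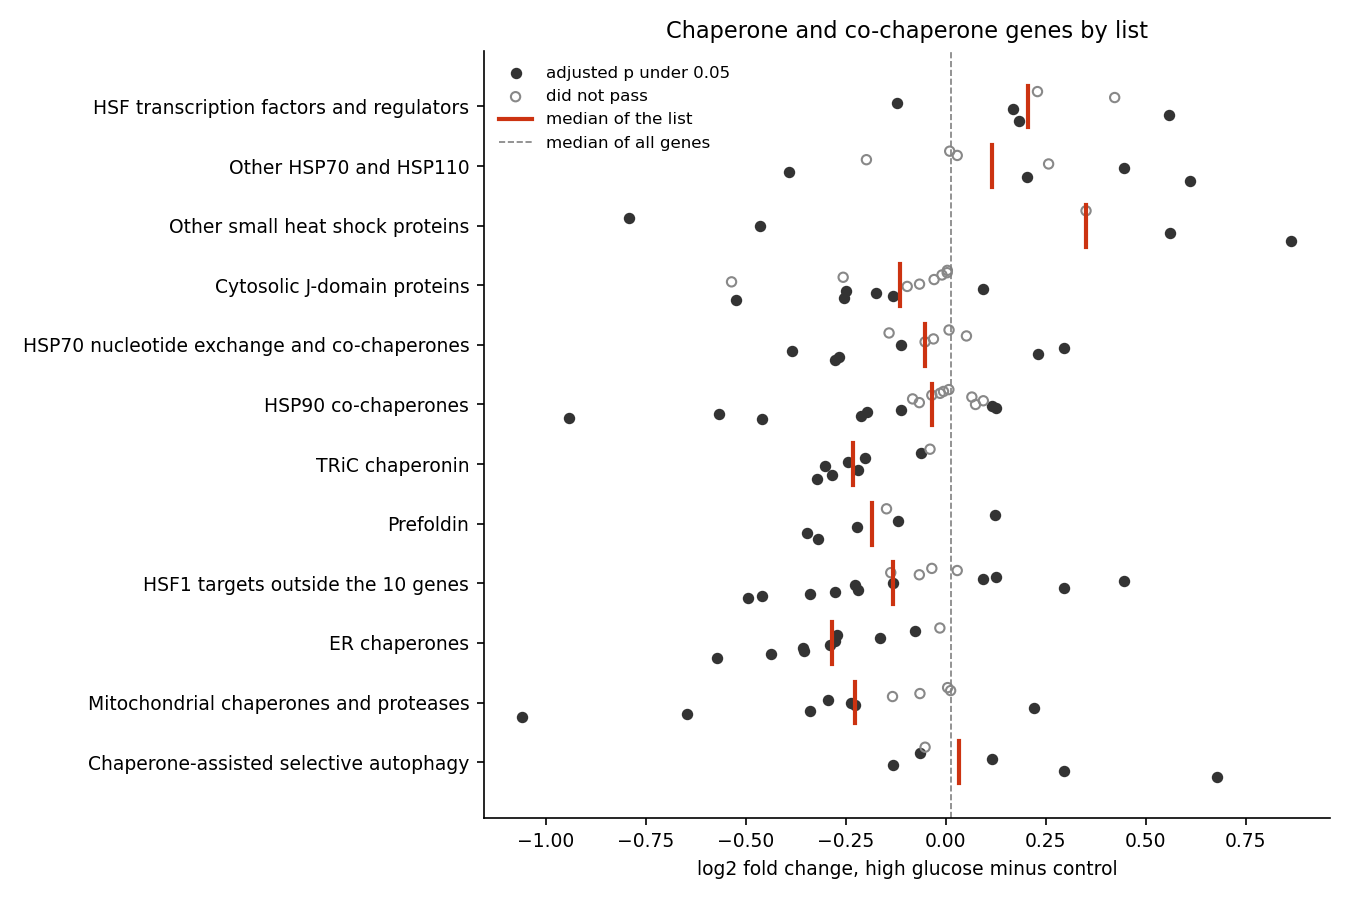
Log2 fold change (x axis) of each gene of 12 chaperone and co-chaperone lists (y axis), with filled circles for genes that passed limma's test, open circles for those that did not, a red line at the median of a list and a dashed line at that of all genes. The endoplasmic reticulum and TRiC lists lie to the left of the dashed line, and the other small heat shock proteins spread to both sides.

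The transcripts most like 2 of the 10 in their course over the 6 samples were sought by Euclidean distance between centred log2 values, among 9217 other genes with a mean of at least 3. Closest to Hsp90ab1, which had the highest values, were Pea15, Rbpj, Pkm, Lamb1 and Ltbp1, at distances of 0.025 to 0.035. Their log2 fold changes lay between -0.37 and -0.35. Closest to Hspb1 were the row AABR07073181.1, Itpr3, Atf4, Akna and Ccdc6, at distances of 0.049 to 0.060, with log2 fold changes between -0.71 and -0.68. With 2 groups of 3 samples, such distances mostly reflect a like difference between the groups.

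Markers of cell types that a ganglion culture could hold moved in the same comparison, and in bulk RNA fewer cells of a type cannot be told apart from less RNA per cell. By the same test, 25.5% of all genes were lower and 24.9% higher. Of 8 mural and smooth muscle markers 7 were lower and none was higher, and their summed level went from 14123.9 to 14239.7 CPM in control to 7494.9 to 7545.7 in high glucose. All 8 Schwann cell markers were lower, with sums of 508.5 to 533.6 and 306.5 to 337.2 CPM. Of 12 neuronal markers 6 were lower and 1 higher, with sums of 98.2 to 102.1 and 73.4 to 74.6 CPM. The neuronal nuclear marker Rbfox3 was near the floor in both groups, at -4.20 and -3.22 log2 CPM. Of 6 fibroblast markers measured, 4 were higher and 2 lower, and they summed to 54350.3 to 56550.2 CPM in control and 50938.6 to 53530.6 in high glucose. Of 5 satellite glia markers 1 was higher and 2 were lower (63.3 to 63.8 and 102.4 to 111.2 CPM). The 8 macrophage, 5 endothelial and 5 skeletal muscle markers summed to at most 31.7 CPM a list in any sample. Genes of high value set most of such a sum: Acta2 and Tagln for mural, Col1a1 and Col3a1 for fibroblast and Glul for satellite glia markers. Uchl1 and Tubb3 did so for the neuronal markers. Glul had a log2 fold change of 0.90, while Fabp7 and Cadm2 were lower. Col1a1 (-0.41) and Thy1 were lower, whereas Col3a1, Dcn, Lum and Pdgfra were higher. None of the marker genes was at 0 reads throughout a group. The part of these shifts in the values of Hspb1, Hspb8 or the other chaperones was not tested.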

How the data were processed

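RNA of 6 samples, 3 control and 3 high glucose, was measured by sequencing. The submitters' processing notes name HISAT2 2.1.0 with the build Rnor_6.0, besides featureCounts 1.6.0 and fastp 0.19.4; their roles, settings, strand, annotation and the handling of reads with several matches are not given in the sources used here. The authors deposited log2 values per gene and sample that the file name calls voom-normalized. They have the form log2 of reads plus 0.5 over a scaled library size, and undoing that form gave reads within 0.01 of a whole number for 100% of values, with totals of 28780612 to 33108451 reads per sample. The library scaling factors lay at 0.959 to 0.964 for controls and 1.03 to 1.05 for high glucose, so small changes depend on them. The lncRNA table was not used here.

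Groups and replicate numbers came from the titles. The table was fitted as deposited with limma 3.58.1 in R 4.3.3 (group as the only term, mean-variance trend, two-sided, Benjamini-Hochberg over 16551 genes, threshold 0.05). On simulated data the fit recovered 58% of 1.25-fold and 92% of 1.5-fold changes, with 50 genes for each. The simulation had few changed genes and the same dispersion for every gene, unlike these data, where 50.5% of genes passed. Ratios were tested by exact permutation over samples with scipy 1.17.1. For a symbol with several rows, that of highest mean stood for the gene. The 10 genes, the chaperone lists and the ratios were chosen with earlier results of these data known, so no set test and no p over the list alone is given. All 10 genes are named. Of each list, at most 3 genes by smallest p among calls of the commoner direction and at most 2 of the other were named, with Hsf1, Hsf2, Bag3, Stip1, Stub1 and Serpinh1 in any case. Other scalings, filters on low values, a single variance prior, a replicate block, the omission of each sample and precision weights were tried.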

Additional observations from a re-analysis of the deposited data

How the results depend on the processing

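The count of called genes among the 10 was 6 under each of 14 alternatives: 2 other scalings, 2 filters on low values (a mean log2 value under 0, or the lowest 25% of rows), a single variance prior, a replicate block, rows of a symbol summed, the omission of each sample and voom precision weights, the last chosen after seeing the data. Both filters removed Hspa1a and Hsp90aa1, so there 6 of 8 were called. With library totals alone Hsph1 replaced Dnajb1 among the 6. The log2 fold changes of Hspa8, Hspb1, Hspb8, Hsp90ab1 and Hspa1b kept their direction and passed in all 14. Leaving out single samples gave log2 fold changes of -0.017 to 0.027 for Hsph1, -1.137 to 0.162 for Hspa1a and -0.083 to 0.499 for Hsp90aa1. With library totals alone Cryab was at 0.061, Stub1 at 0.062 and Flnc at 0.048, and after quantile normalization Flnc was at 0.187 and the difference in the log2 ratio of Dnajb1 to Hspa8 at -0.002. Both scalings move genes by construction, the first by a shift of all genes. The planned count tests on whole reads (edgeR, DESeq2) were not run, because the deposited unit is a log2 value. Same-numbered samples did not deviate together (Pearson r of 0.011, 0.069 and -0.161 over 9218 genes), so the numbers were not taken as pairs. With the replicate block 8052 genes were called against 8354, all 6 of the 10 genes kept their calls, Pfdn5 lost its call (adjusted p = 0.0697), and the ratios of Hspa1a and Hspa1b to Hspa8, Dnajb1 to Hspa8 and Hspb1 to Cryab had an exact sign-flip p of 0.25, the smallest that 3 pairs can give. A single variance prior ended the calls of 7 named list genes (Hsf1, Chordc1, Ppid, Pfdn5, Vbp1, Sqstm1 and Flnc) and gave 55 calls among the list genes against 65. Hspa1a and Hsp90aa1 had at most 34 reads in any sample, which limits their precision; the cause of these low counts was not tested.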
